A study of Mus musculus with 192 samples.

Results

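Brain RNA of nontransgenic (NON) mice collected in the afternoon (PM) was compared with that of NON mice collected in the morning (AM), with the 3 time points T1, T2 and T3 pooled in 1 fit and each of 4 brain regions tested apart. The pools were chosen by their labels, as NON with a stated collection time, and 70 of the 72 NON pools among the 192 pools of the series were used. The other 2 were hindbrain pools of T3, NON AM pool 7 and NON PM pool 5/6, whose reference gene counts had geometric means of 267 and 511, under the minimum of 1000. The hindbrain comparison held 5 AM and 11 PM pools, and the midbrain, left cortex and right cortex comparisons held 7 AM and 11 PM pools each.

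The series measured 43 genes of the amylin, insulin and leptin pathways, together with 3 reference genes, on the NanoString nCounter platform, which counts mRNA molecules directly with barcoded probes. Hemizygous (HEM) and homozygous (HOM) L44 mice carry triprolyl-human amylin under the rat insulin 2 promoter, on the FVB/n background. NON mice are male mice of the same colony without the transgene, born to HEM parents, and were fed standard chow. Each pool holds RNA of 1 or 2 mice, and pools are named here by their sample numbers, so that pool 2/7 combined samples 2 and 7.

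AM and PM pools came from different mice, so each comparison is one between animals. NON mice of T1 were 99 to 100 days old in AM and 99 to 101 days old in PM. At T2, the time point set by the onset of diabetes in transgenic mice, NON AM mice were 130 to 286 days old and NON PM mice 90 to 243 days old, and at T3 they were 400 to 405 and 401 to 408 days old. The groups per time point were small, with 2 AM and 3 PM pools at T1, 2 AM and 5 PM pools at T2, and 3 AM and 3 PM pools at T3, except in the hindbrain at T3, where 1 AM and 3 PM pools remained. In each region outside the hindbrain, 1 of the 3 AM pools and 2 of the 3 PM pools of T3 were labelled previously diabetic. In the hindbrain, the single AM pool of T3 did not carry that label and 2 of the 3 PM pools did. The 4 regions came largely from the same mice, so a result seen in both cortices is not from 2 independent sets of animals.

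Insulin acts on neurons through its receptor and the adaptors Irs1 and Irs2, which recruit phosphoinositide 3-kinase and, through it, Akt and Foxo1. Ptp1b removes phosphate from the insulin receptor and from Jak2, the kinase of the leptin receptor, and so restrains both pathways. Mice eat mostly in the dark, and feeding, hormone levels and neuronal activity, of which c-Fos is a widely used mark, change over the day.

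Summed over the 43 target genes, a hindbrain pool had 28779 to 219509 counts and a midbrain pool 187088 to 305131. The range was 51446 to 424114 for left cortex pools and 92895 to 499537 for right cortex pools. Depth was lowest at T3, where the hindbrain had a median total of 49563.5, the left cortex one of 135752.5 and the right cortex one of 138927. The midbrain piece includes the forebrain and the hypothalamus, and the hindbrain piece the cerebellum. Mch, Hcrt, Agrp, Pomc and Hdc, taken as marker genes of the hypothalamus, each had their highest median in the midbrain. Normalised counts of Mch, the gene of melanin-concentrating hormone, had a median of 26287 in the midbrain against 111.4, 90.2 and 114.4 in the hindbrain, left cortex and right cortex. Hcrt, the orexin precursor, had a median of 923.5 in the midbrain and at most 32.8 in the other regions. The hindbrain was less distinct for Pomc, Agrp and Hdc. Their medians were 320.9, 125.2 and 293 in the midbrain and 120.6, 29.9 and 172.6 in the hindbrain. Hindbrain pools reached 344.9 counts for Pomc and 211 for Agrp, where the midbrain maximum of Agrp was 172.9. The islet hormone genes were close to background in the cortices, where Ins2 exceeded the background of the negative control probes in 2 of 18 left and 1 of 18 right pools. In the hindbrain, Ins1 and Amylin exceeded it in 8 and 9 of 16 pools, with medians of 12.5 each. They reached 301.1 and 168.1 counts, and their means in the AM pools of T1 were 156.3 (SD 204.7) and 87.8 (SD 113.6).

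In both cortices the insulin receptor substrate Irs2 and the phosphatase Ptp1b were lower in PM pools, and in the right cortex so was the histamine receptor Hrh1. In the left cortex, 2 of 43 genes differed (4.65%), Irs2 and Ptp1b, and in the right cortex 3 of 43 genes differed (6.98%), Ptp1b, Irs2 and Hrh1, all lower in PM. In the hindbrain, 1 of 43 genes differed (2.33%), the transcription factor gene Foxo1, which was higher in PM. In the midbrain, 0 of 43 genes differed (0%). A gene was called at an adjusted p under 0.05 by the quasi-likelihood test of edgeR, with time point as a covariate and p-values adjusted over 43 genes after Benjamini and Hochberg. The changes were small, since no gene had an absolute log2 fold-change above 1 in any region and no called gene passed 0.58. In bulk tissue, fewer cells of a type and less RNA per cell cannot be told apart.

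**Figure D1:**
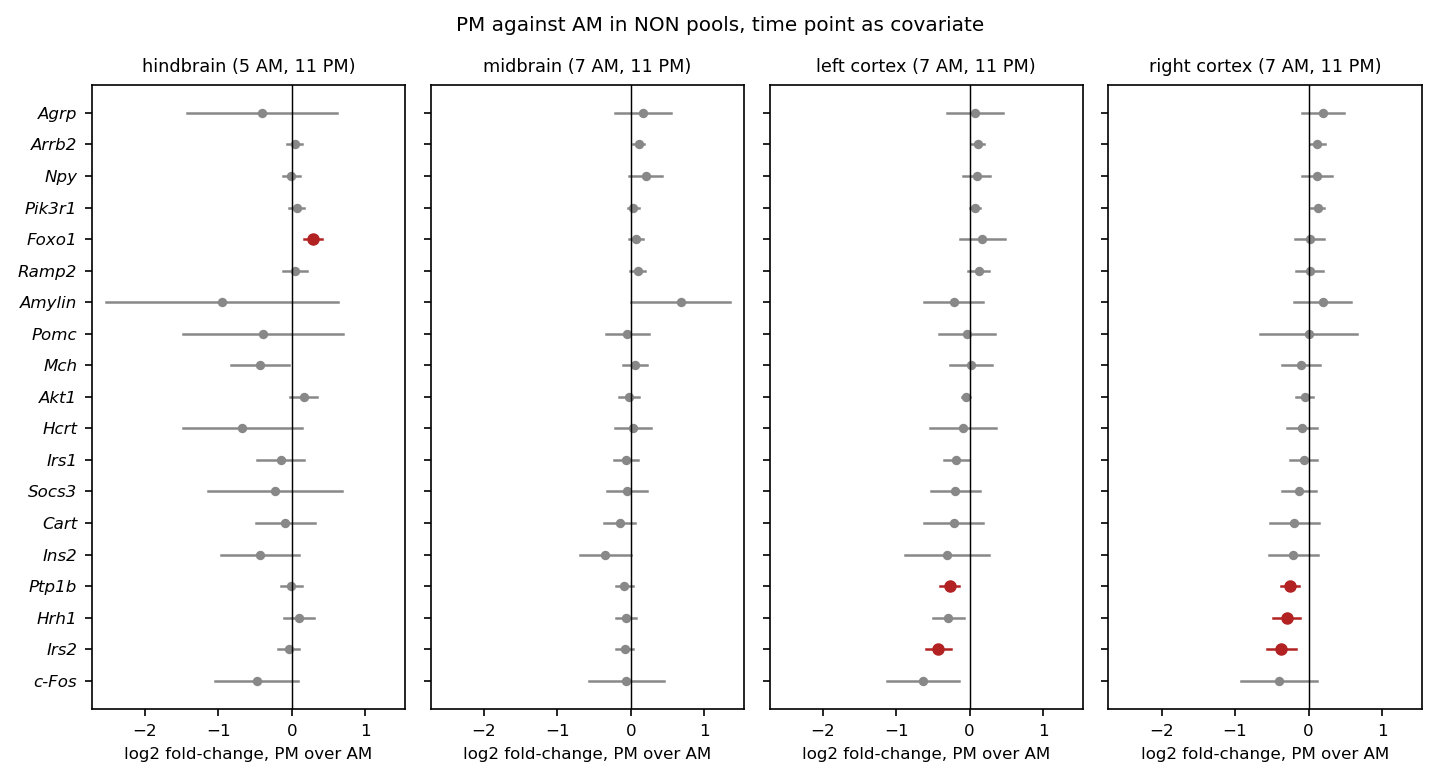
Log2 fold-change of PM over AM (x axis) for the 19 named genes (y axis) in each brain region of NON mice, with 95% confidence intervals as lines; red marks genes called at an adjusted p under 0.05. Irs2, Ptp1b and Hrh1 lie to the left of 0 in both cortices and close to 0 in the hindbrain and midbrain, and Foxo1 alone is called in the hindbrain.

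Irs2 had the lowest p in the left cortex. Its normalised counts at T1 were 3903 and 3914 in the AM pools and 2573, 2482 and 2348 in the PM pools. At T2 they were 3672 and 3644 in AM and 3534, 2673, 3037, 2657 and 2982 in PM, and at T3 they were 3676, 2720 and 2795 in AM and 2092, 2780 and 2335 in PM. The groups did not overlap at T1 and T2, and at T3 the highest PM pool, 5/6, was above the lowest AM pool, 3/4. All 11 PM pools lay under the AM mean of their own time point. Over all time points, the log2 fold-change of Irs2 was -0.42 (SE 0.08, 95% confidence interval -0.60 to -0.25), with an adjusted p of 0.0027 by edgeR's quasi-likelihood test. Within T1, T2 and T3 it was -0.66, -0.30 and -0.35.

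In the right cortex, Irs2 counts at T1 were 5129 and 4793 in AM and 3202, 2647 and 2990 in PM. At T2 they were 4623 and 4088 in AM and 3775, 3252, 3471, 2929 and 3739 in PM, again without overlap. At T3 they were 2947, 3274 and 3262 in AM and 2854, 3521 and 2639 in PM, and the PM pool 5/6 was the highest of the 6 pools. The log2 fold-change was -0.37 (SE 0.09, adjusted p = 0.0182 by edgeR's quasi-likelihood test), and -0.75, -0.34 and -0.07 within T1, T2 and T3.

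Ptp1b, which acts at the insulin and leptin receptors, was also lower in PM pools of both cortices. In the left cortex its counts were 9125 and 9238 in the AM pools of T1, against 7010, 6530 and 7055 in PM. At T2 the AM pools had 9240 and 8786 and the PM pools 8331, 6411, 8023, 6799 and 7717. At T3 the AM pools had 5886, 5078 and 5319 and the PM pools 4384, 5542 and 4842. PM pools were lower without overlap at T1 and T2, and overlapped at T3, where both groups were lower than at T1 or T2. The log2 fold-change was -0.27 (SE 0.06, adjusted p = 0.0089) by edgeR's quasi-likelihood test, and -0.42, -0.27 and -0.14 within T1, T2 and T3. In the right cortex it was -0.25 (SE 0.06, adjusted p = 0.0182), and -0.43, -0.28 and -0.07 within T1, T2 and T3. The right cortex also had no overlap at T1 and T2, with AM pools at 11321 to 11946 and PM pools at 8400 to 10563, whereas at T3 the AM pools had 6089, 6439 and 7118 and the PM pools 6277, 6676 and 5734.

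Hrh1, the histamine H1 receptor through which histamine neurons promote waking, was called in the right cortex. Its counts there were 1746 and 1516 in the AM pools of T1, against 1309, 1139 and 1112 in PM. At T2 they were 1639 and 1409 in AM and 1196, 1003, 1232, 1081 and 1327 in PM, and at T3 1408, 1663 and 1433 in AM and 1307, 1753 and 1200 in PM. AM pools were higher without overlap at T1 and T2, and the groups overlapped at T3. The log2 fold-change was -0.30 (SE 0.09, adjusted p = 0.0472). The call held in 9 of 20 other settings and was lost, at the same fold, with adjustment over all 4 regions together (adjusted p = 0.0944). In the left cortex the value was -0.29 (SE 0.10), with an adjusted p of 0.14 that missed the threshold, all by edgeR's quasi-likelihood test. There it was -0.47 and -0.45 within T1 and T2 but 0.04 within T3. Hdc, the enzyme that makes histamine, was at -0.24 (adjusted p = 0.24) on the left side and at -0.03 on the right.

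c-Fos varied widely between pools and was not called in any region over all pools. In the left cortex its counts were 6575 and 9385 in AM and 5978, 3601 and 5990 in PM at T1. At T2 the AM pools had 6131 and 11219 and the PM pools 3662, 3659, 5338, 3602 and 7202, and at T3 the AM pools had 8165, 4812 and 3561 and the PM pools 2390, 7008 and 3119. PM pools were under AM pools without overlap at T1, and the groups overlapped at T2 and T3. The log2 fold-change was -0.64 (SE 0.23), the largest in absolute value among the 43 genes of that region, with an adjusted p of 0.15 by edgeR's quasi-likelihood test. In the right cortex it was -0.40 (SE 0.25, adjusted p = 0.65). Without T3 PM pool 5/6, c-Fos was called in both cortices, at -0.84 on the left (adjusted p = 0.0083) and -0.69 on the right (adjusted p = 0.0133) by edgeR. Without T2 AM pool 7/8 the right cortex value was -0.23.

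**Figure D2:**
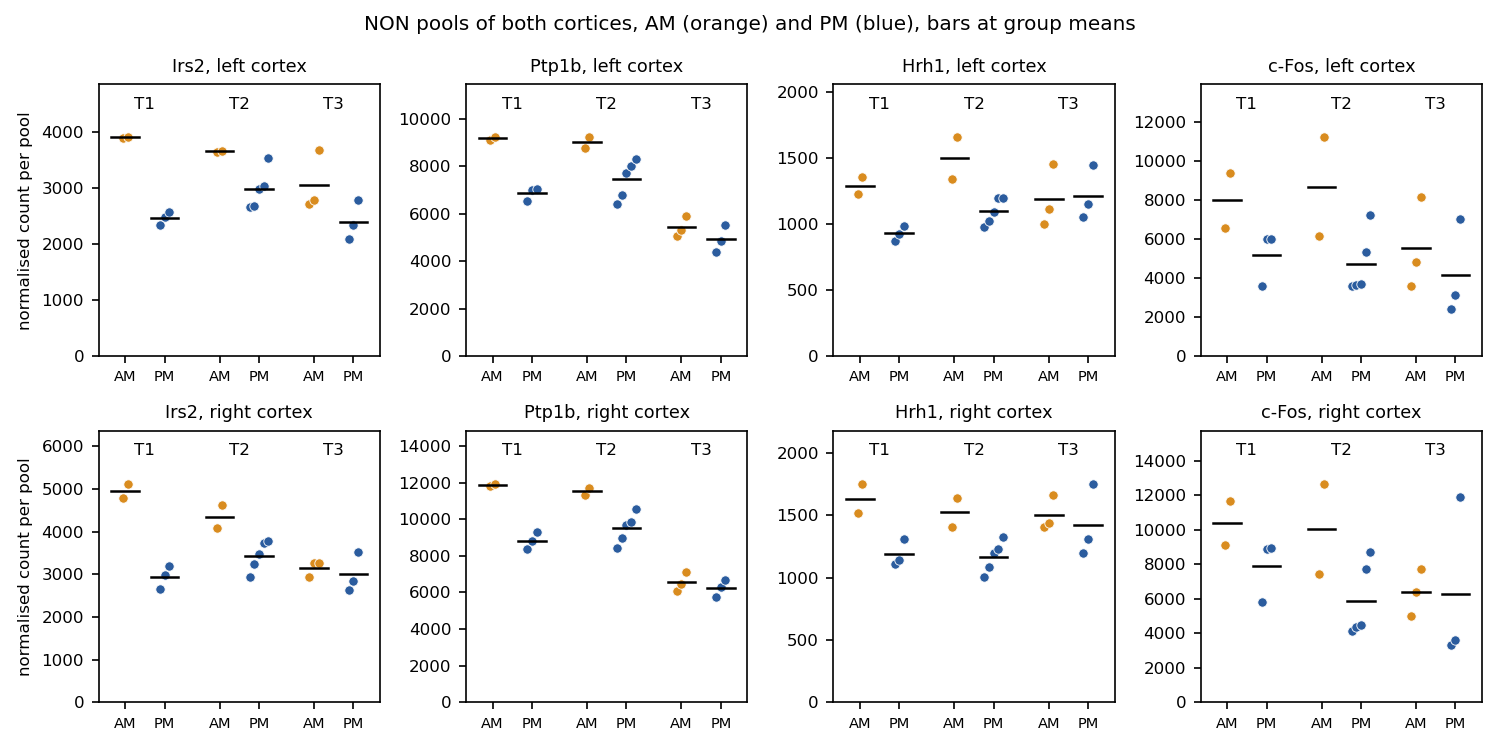
Normalised counts of Irs2, Ptp1b, Hrh1 and c-Fos in every NON pool (y axis, from 0) of the left cortex (top) and right cortex (bottom), by time point and collection time (x axis); orange points are AM pools, blue points PM pools and bars group means. For Irs2, Ptp1b and Hrh1 the PM pools sit under both AM pools at T1 and T2 in both cortices and overlap with AM pools at T3.

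These values can be set against the proximal promoters. They are shown because Irs2 and Ptp1b were called lower in both cortices and because c-Fos is known to be driven through short motifs near its start. The 150 bases before the annotated start of each, from RefSeq on GRCm38.p6, were searched on both strands for CACGTG, the E-box that clock factors can bind, and TGACG, a part of the cAMP response element. The 2 motifs did not overlap each other. Matches are in capitals. Irs2 lies at chr8:11008930-11009079 (minus strand), Ptp1b, listed in RefSeq as Ptpn1, at chr2:167932177-167932326 (plus strand), and c-Fos, listed as Fos, at chr12:85473740-85473889 (plus strand).
Irs2: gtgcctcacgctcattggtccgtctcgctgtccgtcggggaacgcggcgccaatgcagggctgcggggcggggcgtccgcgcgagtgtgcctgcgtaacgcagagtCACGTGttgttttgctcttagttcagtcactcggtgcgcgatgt
Ptp1b: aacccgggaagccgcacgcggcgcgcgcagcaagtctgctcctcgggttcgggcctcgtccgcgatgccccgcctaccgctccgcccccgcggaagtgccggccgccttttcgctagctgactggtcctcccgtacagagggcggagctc
c-Fos: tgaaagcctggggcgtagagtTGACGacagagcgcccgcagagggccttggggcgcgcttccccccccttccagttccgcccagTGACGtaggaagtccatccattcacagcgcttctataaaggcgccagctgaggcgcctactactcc
CACGTG starts 44 bases before the start of Irs2 and is present in 4.3% of all 32851 RefSeq promoter windows of this length. TGACG starts 129 and 66 bases before the start of c-Fos and is present in 13.3% of them. Ptp1b held neither, and none of the windows of the 4 annotated starts of Hrh1 did. These matches only describe the windows, and Irs1, which was not called in either cortex, held both motifs.

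None of the other cortical genes was called in the fit of NON pools by edgeR with reference gene scaling. Among the genes of low counts, Calcr, the calcitonin receptor on which amylin receptors are built, stood at 0.50 on the log2 scale (SE 0.28, adjusted p = 0.30) in left cortex pools, where it exceeded background in 5 of 18 pools, and at 0.37 (SE 0.34, adjusted p = 0.67) in right cortex pools, where it did so in 9 of 18. Arrb2, the gene of beta-arrestin, which ends signalling of G protein-coupled receptors, stood at 0.11 on the log2 scale (SE 0.04, adjusted p = 0.16) in left cortex pools and at 0.12 (SE 0.05, adjusted p = 0.18) in right cortex pools, with 11 of 11 and 10 of 11 PM pools above the AM mean of their time point. Pik3r1, a regulatory subunit of phosphoinositide 3-kinase, stood at 0.07 on the left (adjusted p = 0.23) and 0.12 on the right (adjusted p = 0.0723). Irs1, the other main adaptor, stood at -0.18 on the left (adjusted p = 0.21) and -0.07 on the right (adjusted p = 0.73). The right cortex value of Irs1 joined opposite signs, with -0.28, -0.22 and 0.30 within T1, T2 and T3. Unadjusted p-values under 0.05 were found for 8 genes of the left cortex and 5 of the right cortex, where 2.15 of 43 would be expected by chance. These p-values come from the same edgeR test and adjustment as above. With TMM normalization Arrb2 was called in left cortex pools (0.15, adjusted p = 0.0123), and Pik3r1 was called in right cortex pools by DESeq2 (0.12, adjusted p = 0.0327) and by edgeR with all genotypes in 1 fit (0.12, adjusted p = 0.0399).

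The cortical calls depended on which time points entered the fit. Whether the PM effect differed between time points was tested with an interaction term, and 0 of 43 genes were called in each region (0%), both with reference genes and with TMM normalization in edgeR. At an unadjusted p under 0.05 the hindbrain had 3 genes, the midbrain 4, the left cortex 3 and the right cortex 4. The lowest adjusted p-values of the right cortex in this test were 0.0959 for Irs1 and 0.10 for Irs2. Without the T1 pools, 0 genes were called in either cortex, and Irs2 had log2 fold-changes of -0.32 (adjusted p = 0.23) in the left and -0.21 (adjusted p = 0.41) in the right cortex by edgeR's quasi-likelihood test. Without the T3 pools, 6 genes were called in the left cortex, c-Fos and Irs1 among them (adjusted p = 0.0421 each), and 3 in the right cortex. Without the T2 pools, Irs2 alone was called in the left cortex (-0.49, adjusted p = 0.0232) and 0 genes in the right cortex.

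**Figure D3:**
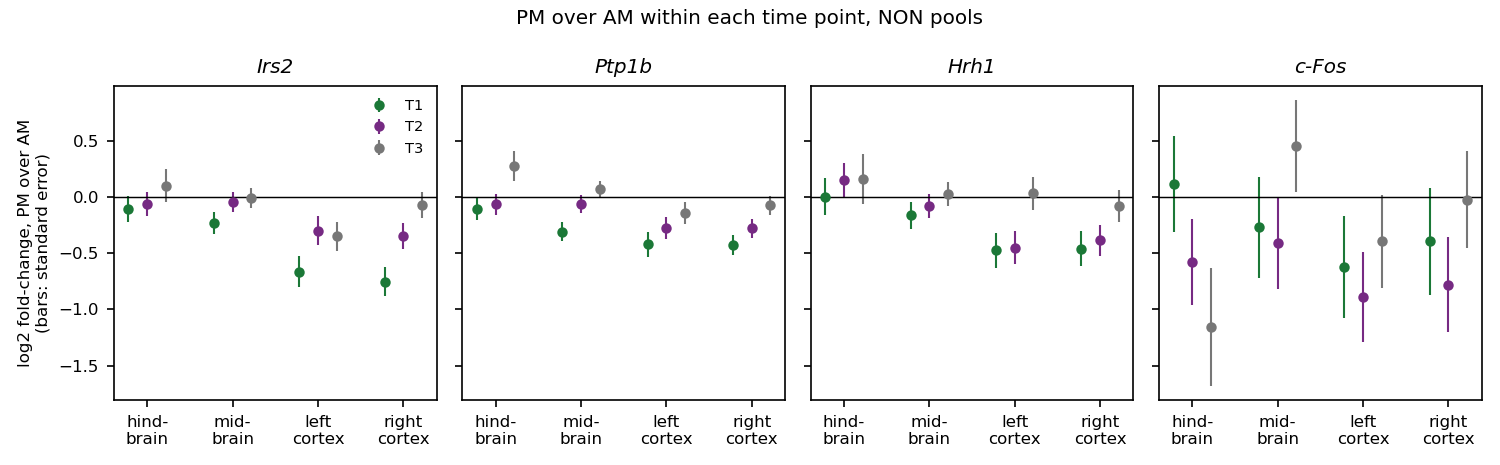
Log2 fold-change of PM over AM (y axis) within T1 (green), T2 (purple) and T3 (grey) for 4 genes in each region of NON mice (x axis), with standard errors as bars. In both cortices Irs2, Ptp1b and Hrh1 are below 0 at T1 and T2, and their T3 values are nearer 0, apart from Irs2 in the left cortex (-0.35).

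The right cortex calls depended on single pools. Leaving out T1 AM pool 2/7, T1 AM pool 8/9 or T2 AM pool 1/3 left 0 genes called there, with adjusted p-values of Irs2 of 0.0641, 0.0600 and 0.0699 by edgeR. The log2 fold-changes of Irs2 were then -0.31, -0.34 and -0.35, and those of Ptp1b -0.22, -0.23 and -0.24. Hrh1 passed in 4 of the 18 fits that left out 1 pool, with adjusted p-values from 0.0017 to 0.22. In the left cortex, between 2 and 5 genes were called when any 1 pool was left out, 5 without T3 PM pool 5/6, and Irs2 and Ptp1b passed in each of these 18 fits. By an exact permutation test of AM and PM within time points over 4200 assignments (two-sided), Irs2 and Ptp1b were called in the left cortex (adjusted p = 0.0205 and 0.0410), and no gene was called in the right cortex (lowest adjusted p = 0.0512).

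The geometric mean of the reference genes, by which counts were scaled, differed between PM and AM by 0.0028 on the log2 scale for left cortex pools (exact permutation p = 0.99) and by -0.14 for right cortex pools (exact permutation p = 0.25). The total of the target genes over that mean differed by -0.02 and -0.0024 (exact permutation p = 0.46 and 0.95). With counts scaled by the positive control probes, Irs2 was still lower in PM (log2 fold-changes of -0.35 and -0.47), but 0 genes were called in either cortex.

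The cortices were cut from the same mice, and 17 pools were shared between the left and right cortex. Deviations of a pool from its time point's mean were alike in the 2 hemispheres for c-Fos (Pearson's r = 0.97), Irs2 (r = 0.93), Npy (r = 0.92) and Ptp1b (r = 0.90). The lowest value of the 43 genes was that of Amylin (r = -0.52), which exceeded background in only 1 of 18 left and 2 of 18 right cortex pools. These correlations are descriptions over 17 pools that share mice, time of collection and dissection, and they include the PM effect itself.

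In the hindbrain, Foxo1, a transcription factor that insulin signalling keeps out of the nucleus, was higher in PM. Its counts were 2021 and 1864 in the AM pools of T1, against 2333, 2465 and 2484 in PM. At T2 they were 1958 and 2152 in AM and 2349, 2135, 2270, 2681 and 2308 in PM, and at T3 1747 in the single AM pool and 2262, 2429 and 2304 in PM. PM pools were higher without overlap at T1 and T3, and at T2 PM pool 2/15 lay under the higher AM pool. All 11 PM pools exceeded the AM mean of their time point. The log2 fold-change was 0.29 (SE 0.06, adjusted p = 0.0085 by edgeR's quasi-likelihood test), and 0.32, 0.19 and 0.42 within T1, T2 and T3. Without T3 AM pool 4/11 it was 0.25 (adjusted p = 0.0669), and the exact permutation test over 840 assignments gave an adjusted p of 0.10. The smallest p of that test was 0.00119, with which no gene alone could pass after adjustment over 43 genes.

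Among the neuropeptide genes of the hindbrain, Mch, Hcrt, Agrp and Pomc had low counts. Mch had 123.2 to 232.9 normalised counts in the AM pools of T1 and T2 and 82.8 to 137.9 in the PM pools of the same times. At T3 the single AM pool had 115.5 and the PM pools a mean of 96.5 (SD 32.2). The groups were free of overlap at T2 only. Over all pools the log2 fold-change of Mch was -0.44 (SE 0.19, adjusted p = 0.67). Hcrt had -0.67 (SE 0.38, adjusted p = 0.67), and its AM mean of 39.0 was set largely by pool 2/7 of T1, at 102.2. Without that pool the value of Mch was -0.26 and that of Hcrt -0.09. With all hindbrain pools kept, all 6 neuropeptide genes had values under 0, with a median of -0.40 beside -0.04 over all 43 genes. Of these, 0 of 6 were called where 2.33% of all genes were. Agrp also varied between the AM pools of T1, with a mean of 120.8 counts (SD 127.5). Agrp, Cart and Pomc were not refitted without pool 2/7, so the median without it was not available. The signs were mixed within T1, T2 and T3 for Pomc (-1.19, 1.52 and -1.71), Agrp (-1.60, 0.39 and 0.58) and Cart (-0.06, 0.29 and -0.79), and Npy was at -0.01 over all pools. Akt1, a kinase of the insulin pathway, had 0.16 (SE 0.09) and c-Fos had -0.48 (SE 0.27), neither called (adjusted p = 0.67 for both by edgeR's quasi-likelihood test). Without T3 AM pool 4/11 or T2 AM pool 7/8, c-Fos had -0.27 or -0.28, and Akt1 had 0.08 without the former. The largest absolute values of the hindbrain were those of Amylin (-0.95, SE 0.74) and Ins1 (-0.93, SE 0.79). Neither was called (adjusted p = 0.70 for both by edgeR's quasi-likelihood test). The cause of the high counts of both genes at T1 in AM was not tested.

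In the midbrain, the piece that contains the hypothalamus together with the forebrain, the appetite genes did not differ detectably between AM and PM. These values are those of the whole piece, and the hypothalamus alone was not measured. Median counts of Npy were higher in the left and right cortex (43583 and 53497) than in the midbrain (17203), so Npy is not particular to the hypothalamus. Npy, which promotes feeding, had counts of 13166 to 20710 in AM and 13477 to 23977 in PM. The groups overlapped at T1 and T2 and not at T3, where the AM pools had 13166 to 15104 and the PM pools 15573 to 19097. Its log2 fold-change was 0.20 (SE 0.11, 95% confidence interval -0.02 to 0.43), with an adjusted p of 0.58, and -0.08, 0.34 and 0.31 within T1, T2 and T3. Agrp, which acts with it, had 0.17 (SE 0.18), and the appetite-suppressing Pomc and Cart had -0.05 (SE 0.14) and -0.15 (SE 0.10), with adjusted p-values of 0.64 to 0.85. Mch had 0.05 (SE 0.08) and Hcrt 0.03 (SE 0.12). Arrb2 had the lowest p of the midbrain, with a log2 fold-change of 0.11 (SE 0.04, adjusted p = 0.38) by edgeR's quasi-likelihood test. By the exact permutation test it was the 1 gene called (adjusted p = 0.0410). Its AM pools had 7018 and 6732 counts at T1, 6902 and 6039 at T2 and 6145, 6093 and 6555 at T3. Its PM pools had 7024, 7055 and 7232 at T1, 7761, 7010, 7635, 7315 and 7187 at T2 and 6628, 6679 and 6482 at T3. The groups overlapped at T3 only, and all 11 PM pools exceeded the AM mean of their time point. Ramp2, a partner of the amylin receptor, had 0.09 (adjusted p = 0.58). Without T2 AM pool 7/8, Ramp2 had 0.06 and Arrb2 0.07. Unadjusted p-values under 0.05 numbered 3 in the midbrain, for Arrb2, Ins2 and Amylin, and the latter 2 were above background in 13 and 11 of 18 pools. Amylin had 0.68 (SE 0.32), with 110.1 counts in T1 PM pool 4/5 and 13.4 to 60.6 in the other pools, and 0.39 without that pool (adjusted p = 0.77).

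**Figure D4:**
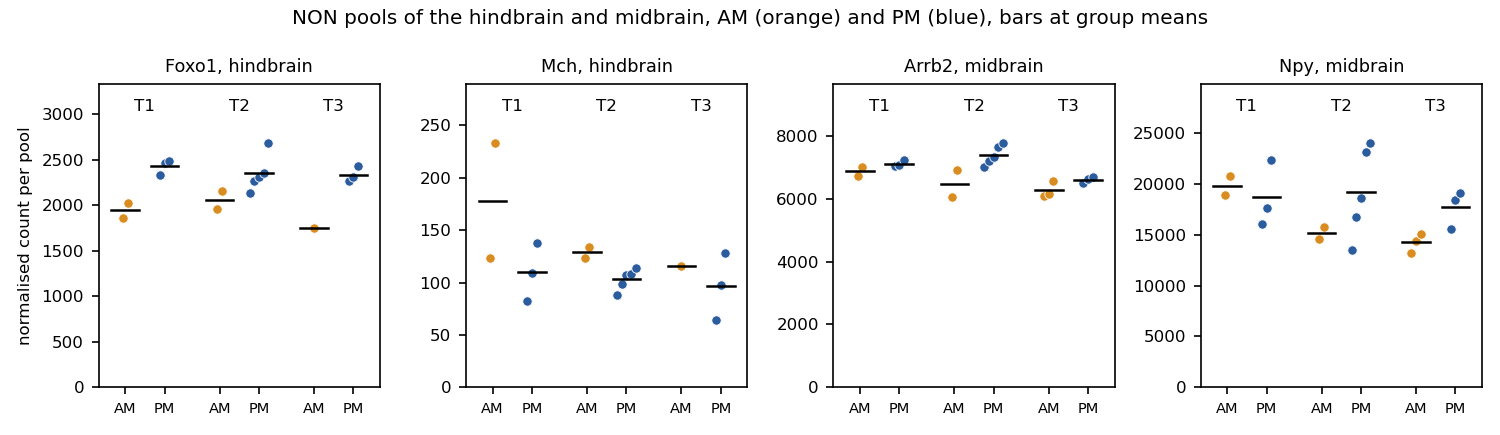
Normalised counts per NON pool (y axis, from 0) of Foxo1 and Mch in the hindbrain and of Arrb2 and Npy in the midbrain, by time point and collection time (x axis); orange points are AM pools, blue points PM pools and bars group means. Foxo1 is higher in PM at each time point, with 1 AM pool at T3, and the AM and PM pools of Npy overlap at T1 and T2 but not at T3.

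By pathway, most genes were not called in any region. Of the 13 genes listed under insulin signalling, among them Pdk1, whose probe has the RefSeq entry of pyruvate dehydrogenase kinase, 1 was called higher in the hindbrain (Foxo1) and 1 lower in each cortex (Irs2), and 12, 13, 12 and 12 were not called in the hindbrain, the midbrain and the left and right cortex, where 2.33%, 0%, 4.65% and 6.98% of all genes were called. Their median log2 fold-changes of 0.03, 0.01, -0.05 and -0.01 lay near those over all 43 genes, at -0.04, 0.02, -0.05 and -0.03. Of the 3 inhibitors of cytokine and hormone signalling, Ptp1b was called in both cortices, and Socs3 and Pias3 in none. Socs3, which restrains leptin signalling, had log2 fold-changes of -0.23, -0.05, -0.19 and -0.13 in the 4 regions in that order, with SEs of 0.43, 0.13, 0.16 and 0.11. The hindbrain value joined -1.05, -0.24 and 3.28 within T1, T2 and T3, the last against the single AM pool, which had 2 raw counts, under background. Of the 4 leptin signalling genes, the 6 amylin receptor probes, of which Calcr and Calcr-1a share 1 RefSeq entry, the 3 receptor desensitisation genes and the single melanocortin receptor gene, 0 were called in any region by edgeR with reference gene scaling. Of the 2 histamine genes, Hrh1 was called in the right cortex.

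Whether the PM effect differed between regions was tested with the pool as a block, over 70 pools and 23 pool labels, of which 19 occurred in more than 1 region. It differed for 4 of 43 genes (9.3%) by edgeR's quasi-likelihood test, Irs2 (adjusted p = 1.17e-04), Ptp1b (2.44e-04), c-Fos (0.0046) and Hrh1 (0.0082). Beyond the block, this test treats the left and right cortex of a pool as independent. Their deviations from the time point mean were alike for these genes (Pearson's r = 0.93, 0.90, 0.97 and 0.72 in that order). These p-values may therefore be too small. Irs2 had log2 fold-changes of -0.04 and -0.09 in the hindbrain and midbrain against -0.42 and -0.37 in the cortices, and Ptp1b had -0.01 and -0.09 against -0.27 and -0.25. Hrh1 had 0.10 and -0.06 against -0.29 and -0.30. c-Fos was different in that its value was -0.48 in the hindbrain and -0.06 in the midbrain, with -0.64 and -0.40 in the cortices. The midbrain value joined -0.27, -0.41 and 0.46 within T1, T2 and T3, and was -0.37 without T3 PM pool 5/6. With that pool left out of all its regions, c-Fos still differed between regions (adjusted p = 0.0140 by edgeR). Without the replicate block, 0 genes were called (lowest adjusted p = 0.0581, for Irs2). Leaving out each pool from all its regions left 3 to 5 genes called, with Irs2 and Ptp1b passing each time, and Hrh1 failing without T2 AM pool 1/3 (adjusted p = 0.13). Without the hindbrain pools, Irs2, Ptp1b and c-Fos were called and Hrh1 was not (adjusted p = 0.59).

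The transgenic pools come from other mice, with 24 hindbrain, 28 midbrain, 27 left cortex and 28 right cortex pools of HEM and HOM mice. Their PM effect was tested in 1 fit per region that also held the NON pools. The spread was thus estimated over more pools than in the fit of NON pools alone. Counts of calls from the 2 fits are therefore not directly comparable. For NON pools of the right cortex, Pik3r1 had an adjusted p of 0.0399 in the shared fit and 0.0723 in the NON fit, by edgeR. In the transgenic pools, PM against AM differed for 14 of 43 genes in the left cortex (32.6%), 13 of them lower. In the right cortex it differed for 8 of 43 (18.6%), all lower. In the hindbrain and midbrain 3 of 43 genes each were called (6.98%). Those of the hindbrain were Foxo1, the histone deacetylase gene Hdac5 and the melanocortin receptor gene Mc4r. Those of the midbrain were Npy (0.54), Socs3 (0.81) and Irs2 (-0.15), with an adjusted p of 0.0324 each by edgeR's quasi-likelihood test. Their NON values there were 0.20, -0.05 and -0.09, none of them called. With TMM normalization the left cortex had 7 calls and the hindbrain 1, and with HOM pools alone the midbrain had 12. Irs2 had log2 fold-changes of -0.39 (adjusted p = 2.77e-04) and -0.38 (7.24e-04) in the left and right cortex of transgenic mice, and Ptp1b had -0.35 (8.68e-05) and -0.34 (4.43e-05). Hrh1 had -0.41 (2.77e-04) and -0.43 (1.85e-04), and Foxo1 in the hindbrain had 0.19 (0.0142), all by edgeR's quasi-likelihood test. Hdac5 was called lower in both transgenic cortices (-0.22 and -0.25), beside -0.10 and -0.09 in NON (adjusted p = 0.21 and 0.65). By the same test it was called lower in the transgenic hindbrain (-0.20, adjusted p = 0.0375), beside -0.07 in NON (adjusted p = 0.70). With HEM pools alone, 0 genes were called in any region. No HEM pool of T1 was labelled AM, so the HEM value rests on T2 and T3, and NON cortices of T2 and T3 alone also gave 0 calls. At T3, HOM mice had a single PM pool in each region. Whether the PM effect differs between HEM and HOM mice was not tested.

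The difference between the PM effects of NON and transgenic pools passed for 0 genes in the hindbrain, midbrain and left cortex (0%) and for 1 of 43 in the right cortex (2.33%). That gene was Pik3r1, with a log2 fold-change of 0.12 in NON and -0.10 in transgenic pools, a difference of 0.22 (SE 0.05, adjusted p = 0.0073). With TMM normalization 0 genes passed in the right cortex, and with HOM pools alone 3 passed in the midbrain and 4 in the right cortex. At an unadjusted p under 0.05 the difference passed for 0, 1, 1 and 5 genes in the hindbrain, the midbrain and the left and right cortex. For Irs2 it was -0.03 (SE 0.12) in the left and 0.02 (SE 0.13) in the right cortex, in both cases less than its standard error.

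**Figure D5:**
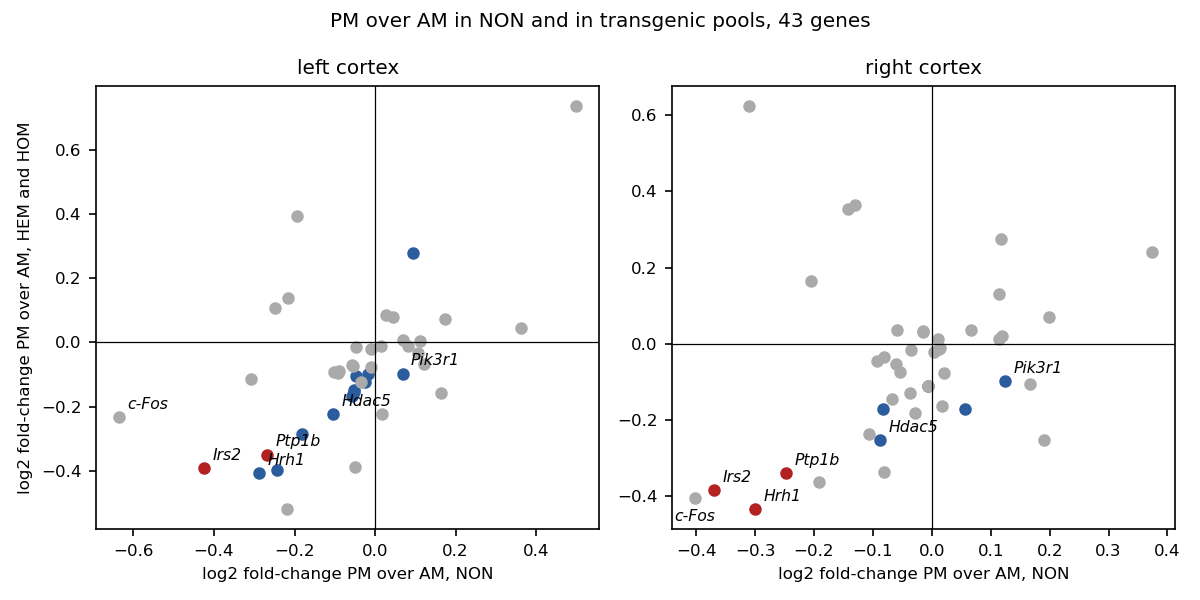
Log2 fold-change of PM over AM in NON pools (x axis) and in HEM and HOM pools (y axis) for 43 genes in the left and right cortex; red genes were called in NON, blue genes in the transgenic pools alone and grey genes in neither. Irs2 and Ptp1b lie below 0 on both axes in both cortices, Hrh1 is red in the right cortex only, and Pik3r1 has opposite signs.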

How the data were processed

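The authors deposited raw counts of barcoded nCounter probes per pool, without background correction or normalization. The counting software was not given in the sources used here. Each pool has 43 target genes, 3 reference genes, 6 positive and 8 negative control probes. The files list Amylin as Iapp and Ir as Insr, and the probe named Pdk1 carries the RefSeq entry of pyruvate dehydrogenase kinase. Samples were mapped by their labels. The pools and gene lists were chosen with earlier results of these data known.

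Pools with a reference gene geometric mean under 1000 were left out. Raw counts were fitted in R 4.3.3 with edgeR 4.0.16, with that geometric mean as library size and time point as covariate, and called at an adjusted p under 0.05 over 43 genes of a region. Each printed normalised count is a count divided by the pool's geometric mean and multiplied by the region's average. Background was the mean plus 2 SD of a pool's negative controls. Named genes were those called, the 5 with the lowest p per region, the 6 neuropeptides, and Irs1, Irs2, Ptp1b, c-Fos and Socs3. Hdc, Hdac5 and Calcr were chosen after their values were seen. The test was checked on simulated data without a time point effect, with changes larger than that of any gene called in NON pools. That check does not cover changes of the size called here. P-values measure the spread between pools. Of 85 pairs of NON pools compared, none had counts within sampling noise (lowest chi-square per degree of freedom 6.18).

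The alternatives used TMM or the positive controls, DESeq2 1.42.0, limma 3.58.1 on log2 of normalised counts plus 1, exact permutations, each reference gene, time point or pool left out, background subtraction, and filters on genes and pools. Those leaving out time points, weighting pools by mice, or leaving pools out of the region test were chosen after seeing the data. NanoStringDiff, which the study used, was not run. The transgenic comparison does not use 12 HEM pools of T1 whose labels give neither AM nor PM. Results on 1 reference gene are not reported here. Figures were drawn with matplotlib 3.10.9 in Python 3.11.15.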

Additional observations from a re-analysis of the deposited data

Results flagged for a closer look

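The 19 named genes were examined in each region in the PM pools of T2, the groups with more than 3 pools, and in 4 of these 76 sets of values 1 pool lay far from the others, where chance gives about 1 in 20. Irs1 had 342.9 normalised counts in T2 PM pool 2/15 of the midbrain, against 402.5 to 409.2 in the other 4 PM pools. Mch had 32964 in T2 PM pool 6/9 of the midbrain, against 24298 to 25930 in the others. The same pool stood apart in the right cortex, where Hcrt had 37.0 counts against 31.7 to 32.8 in the others, and Pomc had 185.8 against 47.2 to 71.2.

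The PM effect differed between NON and transgenic pools for Pik3r1 in the right cortex, by 0.22 on the log2 scale (adjusted p = 0.0073 by edgeR's quasi-likelihood test). Among NON pools it differed between regions for Irs2 (adjusted p = 1.17e-04), Ptp1b (2.44e-04), c-Fos (0.0046) and Hrh1 (0.0082), by edgeR with the pool as a block. The latter p-values may be too small, since the left and right cortex of a pool were treated as independent beyond the block.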

How the results depend on the processing

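The alternatives were run for the counts of calls, the control levels and some named genes of each region, and not for Agrp, Cart, Pomc and Socs3. Over these alternatives 1040 gene values kept their direction and side of the threshold, against 58 that were no longer past it, 13 newly past it and 21 that changed sign. When 1 pool was left out, the count of called genes ran from 0 to 1 in the hindbrain (0 without T3 AM pool 4/11), was 0 in the midbrain, ran from 2 to 5 for left cortex pools and 0 to 4 for right cortex pools, from 0 to 3 for the time point interaction of the hindbrain (3 without T1 AM pool 8/9), and from 3 to 5 for the difference between regions. With the positive control probes as library size, 0 genes were called in the hindbrain and both cortices. Without a time point term 0 were called in both cortices, without reference gene 3 or the T3 pools labelled previously diabetic 0 in the right cortex, and with only pools of 2 mice 1 in the left cortex. With an added limit of 0.58 or 1 on the absolute log2 fold-change, 0 were called in the hindbrain and both cortices. The exact permutation test called 1 in the midbrain, 0 in the right cortex and 0 in the hindbrain, where its smallest p could not pass for a gene alone. With T1 and T2 alone the hindbrain had 0 and the left cortex 6 calls, with T1 and T3 alone the hindbrain 2, the left cortex 1 and the right cortex 0, and with T2 and T3 alone the hindbrain and both cortices 0. AM and PM pools share no mice, so pool numbers pair nothing between them, and the replicate block was used for the regions, where without it 0 genes were called. TMM normalization gave 1, 5 and 7 transgenic calls in the hindbrain, midbrain and left cortex, and 0 genes in the right cortex that differed between NON and transgenic pools. HOM pools alone gave 5 calls in the hindbrain, 12 in the midbrain, 20 for left cortex pools and 12 for right cortex pools. They gave differences from NON for 3 genes in the midbrain and 4 in the right cortex. HEM pools alone, whose PM effect rests on T2 and T3 only, gave 0 calls in each of the 4 regions and 0 differences in the right cortex. With low pools kept, the reference gene mean of the hindbrain was 0.22 higher in PM on the log2 scale, where it was -0.14 without them. Values that changed sign lay near 0. In the hindbrain, Ptp1b was 0.0021 with TMM, 0.0069 and 0.0065 without reference genes 2 and 3, 0.0183 with low pools kept, 0.0480 without T1, 0.0388 without T2, and 0.0243, 0.0103, 0.0109, 0.0021 and 0.0268 without T1 AM pool 2/7, T1 PM pool 4/5, T2 PM pools 2/15 and 6/9 and T2 AM pool 7/8. Hrh1 there was -0.0935 with low pools kept and Irs2 6.55e-04 without T2 AM pool 7/8. In the midbrain, c-Fos was 0.0087 with age as a term, 0.0219 without T1, 0.1290 without T2, 0.0216 without T1 AM pool 8/9 and 0.1069 without T2 AM pool 7/8, and Ptp1b was 0.0060 without T1. Irs1 in the right cortex was 0.0275 without T1 and 0.0166 without T2. The cause of these changes was not tested. No scaling moved the median of all genes by over 0.1. Depth was lowest in the hindbrain and cortices of T3, and Amylin, Ins1 and Ins2 had low counts. Whether depth affected the calls was not tested.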
